A study of Mus musculus with 85 samples.

Results

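The immunity-related GTPases (IRGs) were followed across the liver and bone marrow libraries of 3 inbred mouse strains and their hybrid. The members were chosen by symbol, and 7 of the 23608 genes in the expression tables were taken: the regulators Irgm1, Irgm2 and Igtp and the effectors Iigp1, Tgtp1, Tgtp2 and Ifi47. All 7 were present in the tables. Levels are given as TPM, a transcript share corrected for transcript length and library size.

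IRGs are interferon-inducible GTPases that defend cells against bacteria and protozoa that live inside a membrane-bound vacuole. The regulators (the GMS group) sit on the membranes of the host cell and hold the effectors in their inactive form there. The effectors (the GKS group) load onto the vacuole of the pathogen, where they break its membrane. The family is known from macrophages, where interferon-gamma and interferons made after endotoxin induce it, and it is also expressed in hepatocytes and other non-immune cells.

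The data were RNA-seq of 85 libraries in 30 groups, 69 from C57BL/6J, BALB/cJ and A/J mice and 16 from the CB6F1/J hybrid of a BALB/cJ mother and a C57BL/6J father. Kupffer cells, which are liver-resident macrophages, liver sinusoidal endothelial cells (LSECs) and hepatic stellate cells were sorted from control livers. Hepatocytes were purified by density without a sort, and bone marrow-derived macrophages (BMDMs) were grown in culture. The study used male mice and states a young adult age for all its experiments, although its diet ran for 30 weeks. Kupffer cells were also taken 2 h after 0.1 mg/kg lipopolysaccharide (LPS) was injected into fasted mice of the strains C57BL/6J, BALB/cJ and CB6F1/J, whose controls were fasted and not injected. Mice of the 3 inbred strains were fed the AMLN diet, a fat-, fructose- and cholesterol-rich diet used to model steatohepatitis, for 30 weeks. Donor Kupffer cells from C57BL/6J, BALB/cJ or hybrid marrow were sorted from busulfan-conditioned NSG hosts, which lack lymphocytes of their own, after marrow transplantation. BMDMs of all 4 strains received phosphate-buffered saline (PBS) or 100 ng/ml Kdo2-lipid A (KLA), a purified LPS, for 2 h. Groups held 2 to 5 libraries. Each strain has 1 group of control Kupffer libraries, which serves its strain, cell type, LPS, diet and host comparisons, so these share controls. The labels do not state fasting for the mice on the diet or the NSG hosts. The labels do not say which libraries came from separate animals or cultures, so the spread behind each p-value is that among libraries and may in part be technical. For the LPS-treated Kupffer libraries of BALB/cJ and C57BL/6J the study itself gives 2 mice per group.

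Total gene counts were 5254797 to 42779190 for the 69 parental libraries and 50141540 to 125294454 for the 13 hybrid libraries counted on both genomes. The Kupffer libraries of inbred control mice had all 7 Kupffer cell markers above 1 TPM, with a sum of 14666 to 16755 TPM, against 17.8 to 44.2 TPM in hepatocytes. Clec4f, which defines Kupffer cells, had group means of 0 to 0.0335 TPM in BMDMs given PBS. The A/J stellate libraries summed to 2140 to 6401 TPM of Kupffer cell markers, against 181 to 1702 TPM in the other stellate libraries. The 6 hepatocyte markers reached 6312 and 7213 TPM in A/J LSEC replicates 1 and 2 and 8009 TPM in BALB/cJ LSEC replicate 1, against 811 to 2055 TPM in the other LSEC libraries. The C57BL/6J LPS pair differed from each other in every member tested. In bulk libraries of this kind, fewer cells of a type and less RNA per cell cannot be told apart.

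The 2 groups of IRGs are told apart by the GTP-binding loop of the protein. The coding stretch of this loop is shown for 6 of the 7 members, not for Iigp1, with the deciding codon in capitals, 5′ to 3′, from GENCODE transcripts of GRCm38 (mm10) with the longest open reading frame taken as the coding sequence.

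Irgm1, Irgm2 and Igtp: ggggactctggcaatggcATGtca
Tgtp1 and Tgtp2: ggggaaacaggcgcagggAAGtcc
Ifi47: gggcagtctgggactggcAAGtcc

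The 3 regulators had the same 24 bases there, with a methionine codon at the deciding place, at coding positions 247 to 270 in Irgm1 and Irgm2 and 271 to 294 in Igtp. The effectors Tgtp1, Tgtp2 and Ifi47 had a lysine codon, at coding positions 187 to 210 in Tgtp1 and Tgtp2 and 241 to 264 in Ifi47. Tgtp1 and Tgtp2 are near-identical neighbours: their coding sequences, each of 1248 bases, differed at 4 positions. Reads from one can therefore fall on the other or be lost, and the 2 values are uncertain as a split.

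Upstream sequence was searched for 2 interferon motifs over the 250 bases before the start of transcription in the RefSeq promoters of GRCm38.p6, where 6 of the 7 members are described. The interferon-gamma-activated site (GAS) was taken as TTCNNNGAA on either strand. The interferon-stimulated response element (ISRE), bound by interferon regulatory factors, was taken by its core. The windows are shown because the same pair of motifs recurred in the family. Capitals mark the GAS and ISRE matches, which do not overlap each other here.

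Irgm2, plus strand: agccatTTCCAGGAActGAAACTGAAAgct
Igtp, plus strand: agccatTTCTAGGAActGAAACTGAAAgct
Tgtp1, minus strand: agccatTTCCAGGAAtcGAAACTGAAAcct
Tgtp2, minus strand: agccatTTCCAGGAAtcGAAACCGAAAcct
Irgm1, minus strand: tttcaaGAAATAGAAACCGAAActgattct

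These windows lie at chr11:58214896-58214925 (Irgm2), chr11:58199505-58199534 (Igtp), chr11:48992311-48992340 (Tgtp1), chr11:49064270-49064299 (Tgtp2) and chr11:48871427-48871456 (Irgm1). In Irgm2, Igtp, Tgtp1 and Tgtp2 a GAS match stood 2 bases before an ISRE match. Of 32851 promoter entries, 7.02% held a GAS match, 2.98% an ISRE match and 0.332% both. The GAS match 2 bases before the ISRE match was found in 5 entries, or 0.0152%, with the 4 members named here among them. The spacing was taken from the windows of these members, so their own place among the 5 entries was fixed beforehand. Irgm1 had 2 overlapping ISRE matches and no GAS match, and Ifi47 had neither motif in its window. As a check, bases shortly after each listed start were looked for in transcripts of the gene. They were found for each member described except Irgm2.

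Members were counted as called where edgeR's quasi-likelihood test, adjusted by the Benjamini-Hochberg method over all genes tested, gave an adjusted p under 0.05 and the log2 difference exceeded 1 in size. Genes needed a mean above 8 TPM in at least 1 group of the comparison. Tgtp1 never reached that level and was tested in no comparison, so counts are out of the members tested. Differences are on the log2 scale of edgeR's scaled counts.

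Control Kupffer cells held moderate levels of the regulators and of Ifi47 and Iigp1, with A/J above C57BL/6J. Igtp, a regulator, was at 45.7 and 36.7 TPM in A/J, 20.7 and 33.6 TPM in BALB/cJ and 17.8 and 17 TPM in C57BL/6J. The A/J and C57BL/6J libraries did not overlap, and the BALB/cJ libraries fell between them. Ifi47, an effector also called IRGD, was at 61.3 and 49.4 TPM in A/J, 26.5 and 48.2 TPM in BALB/cJ and 21.2 and 20.8 TPM in C57BL/6J. Iigp1, the effector IRGA6, was at 67.6 and 46.9 TPM in A/J, 18.4 and 43.2 TPM in BALB/cJ and 20.8 and 15.7 TPM in C57BL/6J. Tgtp2, the effector IRGB6, was at 10.8 and 7.40 TPM in A/J, 1.72 and 6.55 TPM in BALB/cJ and 1.24 and 2.19 TPM in C57BL/6J. It was at 8.32 to 31.9 TPM in the 4 hybrid control libraries, from a table normalized apart from the parental ones. Those hybrid values are means of the levels on both parental genomes, and the split from Tgtp1 is uncertain. The hybrid was not tested against the parents.

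A/J exceeded C57BL/6J in Kupffer cells for 4 of the 6 members tested, where 2.56% of all genes were called higher. The log2 difference was 1.24 ± 0.17 (SE, adjusted p = 0.00321) for Igtp and 1.39 ± 0.17 (SE, adjusted p = 0.00158) for Ifi47. It was 1.65 ± 0.26 (SE, adjusted p = 0.0141) for Iigp1 and 2.42 ± 0.36 (SE, adjusted p = 0.00401) for Tgtp2. Irgm1, the regulator of autophagy and vacuole identity, differed by 0.91 (adjusted p = 0.00873), under the fold limit, and Irgm2 by 0.56 (adjusted p = 0.0580). Without A/J replicate 1, 2 of the members were called. Of the 8 guanylate-binding protein (GBP) genes tested in this comparison, 1 was called, Gbp4, with a log2 difference of 2.48. Erythroid and platelet markers summed to 543 and 176 TPM for A/J and to 83.4 and 53.7 TPM for C57BL/6J, and their part in the difference was not tested.

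Neither comparison with BALB/cJ Kupffer cells called a member. The A/J minus BALB/cJ differences of the 6 members tested were all positive, from 0.25 to 1.15 on the log2 scale, and none passed, where 3.17% of all genes were called in either direction. Without BALB/cJ replicate 2, the higher library of that pair, 3 members were called. BALB/cJ minus C57BL/6J differences were 0.66 for Irgm1, 0.65 for Igtp, 0.76 for Iigp1 and 0.84 for Ifi47, with Irgm2 at -0.16, and none of the 5 was called, against 5.93% of all genes. Without BALB/cJ replicate 1, 2 of these were called.

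**Figure D1:**
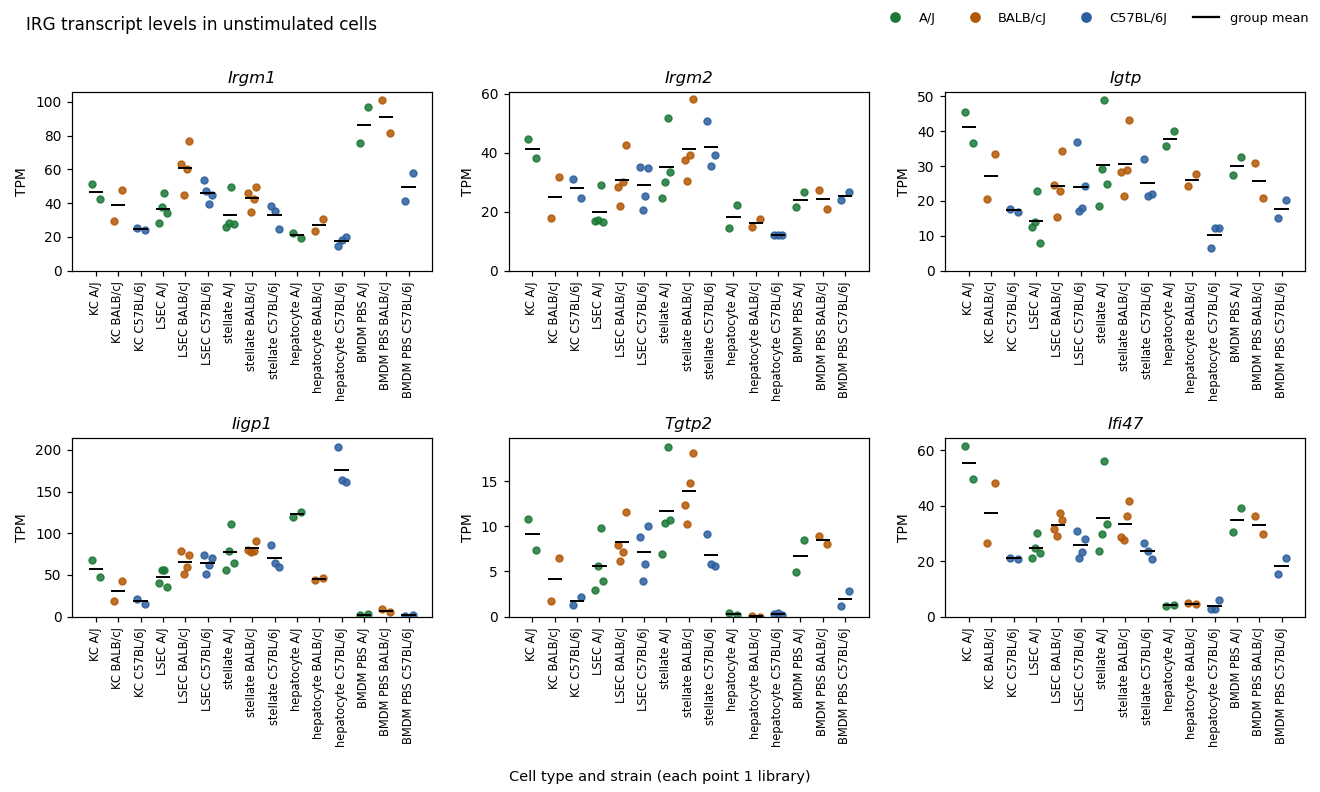
TPM of 6 IRGs in every unstimulated parental library, by cell type and strain. Each point is 1 library and each black line the group mean, on linear axes from 0. Iigp1 reaches 162 to 204 TPM in C57BL/6J hepatocytes and stays under 10 TPM in BMDMs given PBS, while Ifi47 and Tgtp2 are lowest in hepatocytes.

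In hepatocytes Iigp1 was the highest member, and Ifi47 and Tgtp2 were low. Iigp1 also had the highest group mean of the members in LSECs, at 46.9 to 65.6 TPM, and in stellate cells, at 70.3 to 81.7 TPM. Its hepatocyte levels were 119 and 126 TPM in A/J, 44.2 and 46.8 TPM in BALB/cJ and 204, 164 and 162 TPM in C57BL/6J. The 3 strains did not overlap, and the C57BL/6J libraries were the highest. Igtp was at 35.7 and 40.0 TPM in A/J, 24.2 and 27.6 TPM in BALB/cJ and 6.49, 12.2 and 12.1 TPM in C57BL/6J. Ifi47 was at 2.69 to 6.12 TPM and Tgtp2 at 0 to 0.410 TPM in the 7 hepatocyte libraries. Tgtp1 was above Tgtp2 in every hepatocyte library, at 0.213 to 0.948 TPM, and both lay near the lower end of what these tables resolve.

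Over the 3 strains of hepatocytes, 2 of the 4 members tested were called, where 10.9% of all genes were called in either direction. Iigp1 had a BALB/cJ minus C57BL/6J difference of -2.10 and an A/J minus BALB/cJ difference of 1.52 on the log2 scale (adjusted p = 0.000929 over the strains). The A/J minus C57BL/6J difference of Iigp1 was -0.58. Igtp exceeded its C57BL/6J level by 1.84 in A/J and by 1.20 in BALB/cJ (adjusted p = 0.00346 over the strains). Irgm1 and Irgm2 had largest differences of 0.49 and 0.57 and did not pass. Leaving out each hepatocyte library in turn left 2 members called each time.

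No member was called between the strains in stellate cells or LSECs. Iigp1 spanned 56.1 to 111 TPM in A/J stellate cells, 77.5 to 90.9 TPM in those of BALB/cJ and 59.9 to 86.1 TPM in C57BL/6J, with the groups overlapping. None of the 6 members tested was called over the 3 strains, while 14.6% of all genes were. Tgtp2 came nearest, at 10.3 to 18.2 TPM in BALB/cJ against 5.65 to 9.19 TPM in C57BL/6J, a log2 difference of 1.05 with adjusted p = 0.0519. It was called when A/J replicate 1 or 3 or BALB/cJ replicate 2 was left out. A/J stellate replicate 3 had the highest level of each regulator, of Iigp1, of Tgtp2 and of Ifi47 in its group, and also the highest Kupffer cell marker sum, at 6401 TPM, whose part in those levels was not tested.

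Irgm1 spanned 28.5 to 45.9 TPM in A/J LSECs, 44.6 to 76.5 TPM in BALB/cJ LSECs and 39.2 to 53.6 TPM in C57BL/6J. No member was called in A/J minus BALB/cJ, A/J minus C57BL/6J or BALB/cJ minus C57BL/6J, where 2.67%, 4.14% and 3.87% of all genes were called. The A/J minus BALB/cJ differences of the 6 members tested were all negative, from -0.70 to -0.38 on the log2 scale, and Irgm1 passed the adjusted p alone (difference -0.70, adjusted p = 0.0172). The number called stayed at 0 without the 3 LSEC libraries highest in hepatocyte markers.

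The A/J excess over C57BL/6J in Kupffer cells was not seen in LSECs, where the differences of the 5 members tested ran from -0.69 to -0.01. The test of strain by cell type called 3 of the 6 members tested, where 7.51% of all genes were called. The A/J minus C57BL/6J difference in LSECs minus that in Kupffer cells was -1.20 for Irgm1 (adjusted p = 0.0386), -2.05 for Iigp1 (adjusted p = 0.0167) and -1.40 for Ifi47 (adjusted p = 0.0132), on the log2 scale. Tgtp2, Igtp and Irgm2 had changes of -2.69, -1.92 and -1.04 in the same contrast, with adjusted p of 0.0819, 0.0902 and 0.130 over the strains. The count fell to 0 without A/J Kupffer replicate 1 and to 1 without C57BL/6J Kupffer replicate 2, and rose to 6 without A/J LSEC replicate 3. The same test between Kupffer cells and BMDMs called none of 6, against 14.8% of all genes, and 2 without BALB/cJ Kupffer replicate 2.

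Between cell types, hepatocytes differed from Kupffer cells in 3 of 6 members tested, where 60.4% of all genes were called in either direction. Iigp1 was higher by 2.90 ± 0.36 (SE, adjusted p = 4.38e-09), and the differences of Ifi47 and Tgtp2 were -1.99 and -3.25. Irgm1, Irgm2 and Igtp differed by 0.32, 0.05 and 0.76 on the scaled counts, but by -0.58, -0.87 and -0.15 where library totals alone were used, so no direction is given for the regulators. The sizes given for Iigp1, Ifi47 and Tgtp2 rest on the same scaling. Stellate cells exceeded Kupffer cells in Tgtp2 by 1.01 (adjusted p = 0.0147), the 1 member called higher, where 20.9% of all genes were. That call was lost with RLE normalization, with DESeq2, without the level filter and with the replicate number as a block. It was also lost without BALB/cJ Kupffer replicate 1, C57BL/6J Kupffer replicate 1 or 2, A/J stellate replicate 3, or BALB/cJ stellate replicate 3 or 4, and 2 members were called without the 4 A/J stellate libraries. LSECs differed from Kupffer cells in none of 6 members, against 38.3% of all genes. Under the fold limit, 3 of those members passed the adjusted p, Ifi47 by -0.67, Igtp by -0.64 and Irgm2 by -0.53.

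BMDMs given PBS were rich in Irgm1, at 75.3 and 96.9 TPM in A/J, 101 and 81.3 TPM in BALB/cJ and 41.1 and 57.8 TPM in C57BL/6J. Iigp1 was nearly absent from them, at 1.88 and 2.93 TPM in A/J, 8.68 and 4.96 TPM in BALB/cJ and 1.16 and 1.67 TPM in C57BL/6J. The BMDM minus Kupffer cell difference of Iigp1 was -3.66 ± 0.44 (SE, adjusted p = 1.62e-05) on the log2 scale, the 1 of 6 members tested that was called, where 14.8% of all genes were called lower. Irgm1 was higher by 0.83 (adjusted p = 0.000264), under the fold limit. The deposited BMDM counts were in part fractional and those of inbred Kupffer cells were whole, so the counts were made differently. Cell type and this difference in counting cannot be told apart in comparisons of BMDMs with Kupffer cells.

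Between strains of BMDMs, Tgtp2 was at 4.98 and 8.44 TPM in A/J, 8.97 and 8.07 TPM in BALB/cJ and 1.15 and 2.86 TPM in C57BL/6J. Its BALB/cJ minus C57BL/6J difference was 2.06 ± 0.40 (SE, adjusted p = 0.0136), the 1 member called of 5 tested, where 2.44% of all genes were called higher. Irgm1 and Ifi47 were also higher in BALB/cJ, by 0.89 (adjusted p = 0.00215) and 0.85 (adjusted p = 0.000187), under the fold limit. A/J exceeded C57BL/6J by 0.72 for Irgm1, 0.68 for Igtp and 0.85 for Ifi47, each with an adjusted p under the threshold and a difference under the fold limit, so none of 4 was called, against 5.53% of all genes. A/J and BALB/cJ differed in none of 5, against 4.35%. Leaving out 1 library moved these counts to at most 3.

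LPS raised all 6 tested IRGs in the Kupffer cells of each strain. Ifi47 was at 26.5 and 48.2 TPM in control and 171 and 219 TPM in LPS-treated BALB/cJ mice. In C57BL/6J it was at 21.2 and 20.8 TPM in control and 263 and 501 TPM after LPS. In the hybrid it was at 53.1, 91.3, 54.9 and 32.6 TPM in control and 400, 379, 498, 441 and 382 TPM after LPS. No LPS library overlapped a control library in any strain.

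Ifi47 and Iigp1 had the largest differences in each strain. The log2 differences of Ifi47 were 2.84 ± 0.32 (SE, adjusted p = 0.000961) in BALB/cJ, 4.76 ± 0.42 (SE, adjusted p = 0.00102) in C57BL/6J and 3.59 ± 0.26 (SE, adjusted p = 1.30e-07) in the hybrid. Iigp1 rose by 2.57 ± 0.45 in BALB/cJ, 4.81 ± 0.77 in C57BL/6J and 3.30 ± 0.40 in the hybrid (SE, adjusted p = 0.00561, 0.00559 and 1.57e-05). It went from 20.8 and 15.7 TPM to 138 and 539 TPM in C57BL/6J. In BALB/cJ it went from 18.4 and 43.2 TPM to 107 and 158 TPM. Tgtp2 rose by 2.24, 4.75 and 2.44 in the same order, to 13.0 and 15.1 TPM in BALB/cJ, 15.3 and 45.9 TPM in C57BL/6J and 35.1 to 77.6 TPM in the hybrid.

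The regulators rose in all 3 strains as well. Irgm1 rose by 2.15 in BALB/cJ, 3.76 in C57BL/6J and 2.77 in the hybrid, Igtp by 2.09, 3.72 and 2.85, and Irgm2 by 2.21, 2.89 and 2.12, on the log2 scale. Their adjusted p lay between 3.31e-07 and 0.00449. Irgm2 reached 65.3 and 102 TPM in BALB/cJ and 89.8 and 187 TPM in C57BL/6J after LPS. The count was 6 of 6 members in each strain, where 16%, 18.3% and 18.7% of all genes were called higher in BALB/cJ, C57BL/6J and the hybrid. Without BALB/cJ LPS replicate 2 the BALB/cJ count was 3. With library totals alone the differences were smaller, 1.61 to 2.37 in BALB/cJ, 2.28 to 4.17 in C57BL/6J and 1.41 to 2.88 in the hybrid, and all 6 members were called in each strain. Neutrophil markers summed to 86.5 to 122 TPM in the BALB/cJ and C57BL/6J control and 175 to 327 TPM in their LPS libraries. Among them Csf3r had BALB/cJ and C57BL/6J means of 83.7 and 114 TPM in control and 137 and 200 TPM after LPS. The means of S100a8 were 4.84 and 2.49 TPM in control and 30.2 and 44.2 TPM after LPS. Hepatocyte markers summed to 558 and 1356 TPM in the C57BL/6J LPS libraries against 158 and 427 TPM in their controls. The part of either marker list in the result was not tested.

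The size of the C57BL/6J response rested on the library. LPS replicate 2 was above replicate 1 in each of the 6 members, with 308 against 139 TPM of Irgm1 and 222 against 84.1 TPM of Igtp. Without replicate 2 the 6 differences were 2.18 to 4.14, and without replicate 1 they were 3.39 to 5.52, each from a single LPS library whose spread is taken from the control pair, so these are values with no check of their own. The test of strain by LPS gave C57BL/6J minus BALB/cJ differences of 1.63 ± 0.60 for Irgm1, 2.26 ± 0.96 for Iigp1 and 1.94 ± 0.57 for Ifi47 (SE). None of 6 was called (adjusted p from 0.224 to 0.661), and 4 had an unadjusted p under 0.05. That test called 0.11% of all genes. It called 3 members, Irgm1, Igtp and Ifi47, without C57BL/6J LPS replicate 1. It called none without replicate 2, where the difference was 0.86 for Irgm1 and 1.32 for Ifi47. With DESeq2 it called 1, Ifi47.

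**Figure D2:**
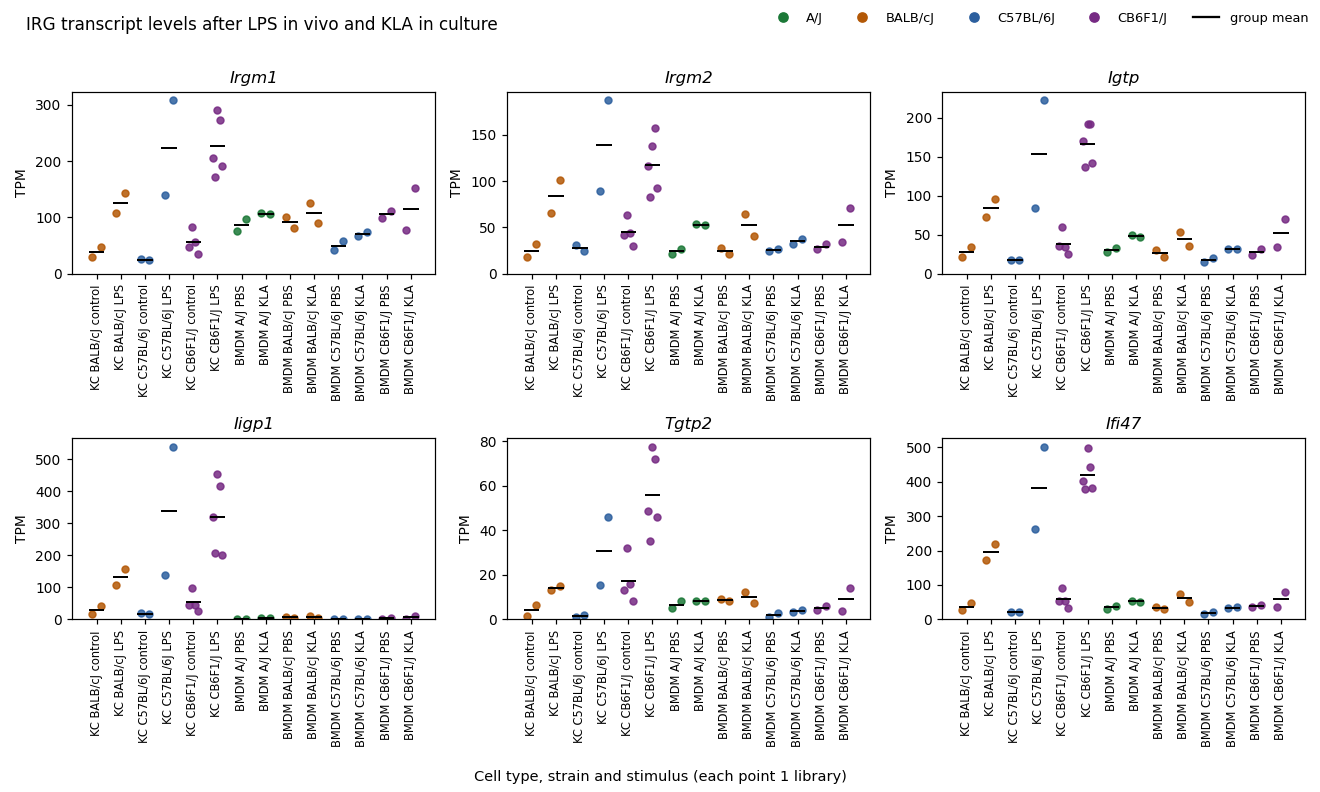
TPM of 6 IRGs in every control and LPS library of Kupffer cells (KC) and every PBS and KLA library of BMDMs. Each point is 1 library and each black line the group mean, on linear axes from 0. Ifi47 in LPS-treated Kupffer cells runs from 171 to 501 TPM, above all control libraries, and the C57BL/6J LPS points lie far apart.

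KLA gave smaller changes in BMDMs than the changes seen after LPS in Kupffer cells, and the size of the response was not compared between the cell types by a test. Irgm2 was at 21.5 and 26.6 TPM with PBS and 53.9 and 52.0 TPM with KLA in A/J. In BALB/cJ it was at 27.5 and 20.9 TPM with PBS and 64.7 and 40.2 TPM with KLA. In C57BL/6J it was at 24 and 26.7 TPM with PBS and 31.8 and 37.5 TPM with KLA. The PBS levels of these 3 strains overlapped, and with KLA both C57BL/6J libraries were below those of the other inbred strains.

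Irgm2 rose with KLA by 1.40 ± 0.10 (SE, adjusted p = 2.31e-06) in A/J, the 1 member called of 5 tested, where 7.43% of all genes were called higher. In BALB/cJ 3 of 6 were called, Irgm2 by 1.36 ± 0.27, Ifi47 by 1.18 ± 0.20 and Igtp by 1.01 ± 0.27 (SE, adjusted p = 0.00720, 0.00241 and 0.0245), against 8.72% of all genes. In C57BL/6J 2 of 4 were called, Ifi47 by 1.09 ± 0.13 and Igtp by 1.03 ± 0.12 (SE, adjusted p = 4.42e-06 and 1.91e-06), against 9.61%. The C57BL/6J change of Irgm2 was 0.66 ± 0.09 (SE, adjusted p = 7.49e-06), under the fold limit. Irgm1 rose by 0.57 in A/J and 0.71 in C57BL/6J, past the adjusted p and under the fold limit. Iigp1 stayed at 1.94 to 11.2 TPM with KLA, and where it was tested, in BALB/cJ, its difference was 0.53 ± 0.47 (SE, adjusted p = 0.406).

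Several of these calls lie near the fold limit. With library totals alone, 1 member was called in BALB/cJ and none in C57BL/6J. Leaving out 1 library gave counts of 1 to 4 for A/J, of 0 to 3 for BALB/cJ and of 0 to 2 for C57BL/6J. In the hybrid none of 5 was called, against 12.5% of all genes in either direction. KLA replicate 1 held 34.0 TPM and replicate 2 held 70.7 TPM of Irgm2 there, and without replicate 1 all 5 were called. The test of strain by KLA called none of 6 (adjusted p from 0.281 to 0.965), against 2.61% of all genes. Irgm2 had its lowest adjusted p, with a BALB/cJ minus C57BL/6J difference in response of 0.72.

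**Figure D3:**
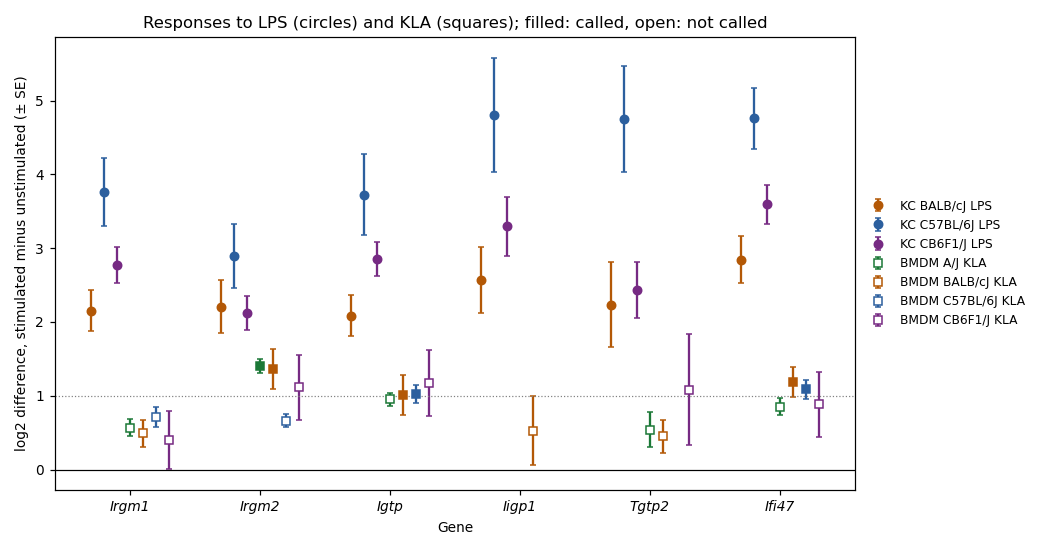
Log2 difference of each tested IRG after LPS in Kupffer cells (circles) and after KLA in BMDMs (squares), by strain, with bars of 1 standard error. Filled symbols were called, and the dotted line marks the fold limit of 1. All circles are filled and lie from 2.09 to 4.81, and the squares lie from 0.40 to 1.40.

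In CB6F1/J cells both parental alleles are read in the same nucleus, so a difference between them compares the 2 copies under shared conditions. Only reads that span a variant between BALB/cJ and C57BL/6J were counted, 4756244 to 13079962 per library. Irgm1, Tgtp1, Tgtp2 and Ifi47 had no such reads in any library and are not described. Irgm2 had the most, 2886 to 12951.5 per library, in tables that record some fractions of a read. Igtp had 710.5 to 5676.5 and Iigp1 0 to 355.5.

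The share of Irgm2 reads from the BALB/cJ allele shifted with stimulation. It was 41.6%, 44.4%, 41.8% and 43.4% in the 4 control Kupffer libraries. It was 53.3%, 54.0%, 52.7%, 54.4% and 54.9% in the 5 LPS libraries. The groups did not overlap, and the 95% exact binomial intervals, which cover counting error alone, ran from 40.1% to 45.7% in controls and from 51.9% to 55.9% after LPS. In BMDMs the share was 46.5% and 46.1% with PBS and 52.9% and 55.8% with KLA. In NSG hosts it was 45.7%, 48.6% and 46.7%. C57BL/6J was thus the larger share in every unstimulated library and BALB/cJ in every stimulated one.

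The mean share was 42.8% ± 1.35 (SD, n = 4) without and 53.9% ± 0.84 (SD, n = 5) with LPS, 11 percentage points apart. An exact two-sided permutation test gave p = 0.0159, the smallest that 4 against 5 libraries allow, and 0.0794 after Benjamini-Hochberg adjustment over 5 such tests. For KLA the difference was 8.06 points, with p = 0.333 by the exact permutation test, the smallest that 2 against 2 allow. The edgeR interaction of allele and LPS was 0.65 ± 0.33 (SE, adjusted p = 0.757), and 0.795% of all genes were called by it. Both alleles come from the same library, and with the library as a block the interaction was 0.66 with adjusted p = 3.53e-05, under the fold limit. By that measure 6.69% of the 3395 genes tested had an adjusted p under 0.05, and Irgm2 ranked 14 by p.

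Taken within each group, the BALB/cJ minus C57BL/6J allele difference of Irgm2 was -0.39 in control Kupffer cells and 0.26 after LPS on the log2 scale. With the library as a block the adjusted p were 0.00149 and 0.000625, where 27.8% and 23.4% of all genes had an adjusted p under 0.05. In BMDMs with PBS it was -0.19 (adjusted p = 0.0168 with the block, against 21.4% of genes). With the block it was -0.16 in NSG hosts and 0.29 in BMDMs with KLA, and neither passed (adjusted p = 0.174 and 0.0784), where 7.33% and 19.9% of genes did. Without the block no member was called in Kupffer control, LPS or NSG libraries or in BMDMs with PBS or KLA, where 4.06%, 5.76%, 4.01%, 3.1% and 3.21% of genes were. The interaction of allele and KLA called no gene at all (0%, with edgeR), and 2 genes passed the adjusted p with the block, Irgm2 not among them (adjusted p = 0.169). The parental strains, as separate animals, gave a BALB/cJ minus C57BL/6J difference of -0.16 for Irgm2 in control Kupffer cells. After LPS the parental libraries held 65.3 and 102 TPM of Irgm2 in BALB/cJ and 89.8 and 187 TPM in C57BL/6J, and the strains overlapped. The parental and the allele differences were not tested against each other.

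Igtp, the neighbour of Irgm2, showed no such gap. Its BALB/cJ share was 41.9% to 52.6% in control and 49.1% to 52.6% in LPS Kupffer libraries, with overlapping groups (p = 0.540, exact two-sided permutation test). Control replicate 4, with the fewest reads of Igtp at 710.5, was the low library. Iigp1 was read 25 to 86 times per control library and 73.5 to 355.5 times per LPS library, with BALB/cJ shares of 30.0% to 43.6% and 19.7% to 55.6%. The spread of the LPS libraries was wider than the change of the mean, 1.35 points.

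**Figure D4:**
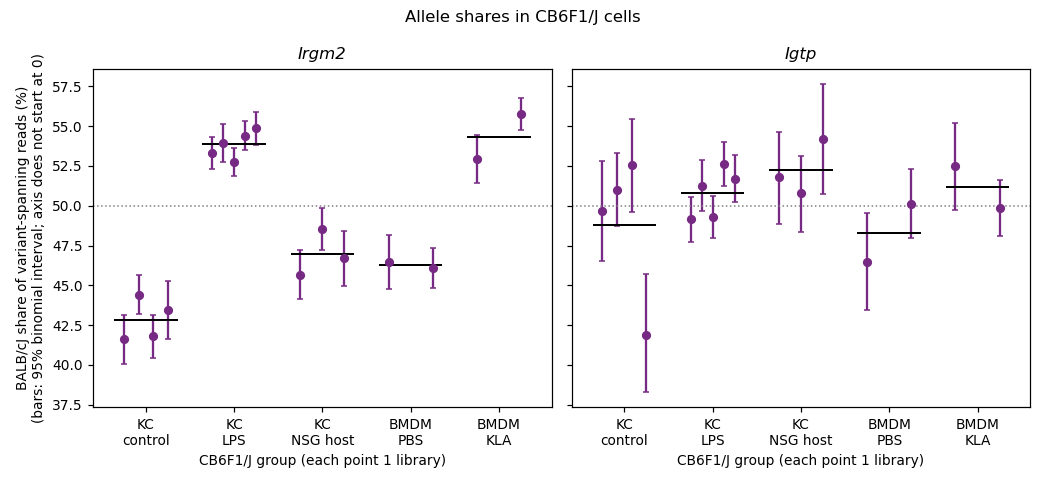
Share of variant-spanning reads from the BALB/cJ allele of Irgm2 and Igtp in each CB6F1/J library, with 95% exact binomial intervals and black lines at the group means. The dotted line marks 50%, and the axis does not start at 0. Irgm2 lies at 41.6% to 48.6% in unstimulated and 52.7% to 55.8% in stimulated libraries, while Igtp shows no such gap.

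Irgm1 and Ifi47 were higher in Kupffer cells of C57BL/6J mice on the AMLN diet than in controls. No member was called in the other strains. The diet ran for 30 weeks, and diet and age cannot be told apart in these comparisons. The study states that its diet experiments used laboratory-maintained C57BL/6 mice, while its other inbred mice came from a supplier. Irgm1 was at 25.1 and 24.3 TPM in control and 49.6, 30.1, 45.1 and 48.4 TPM in fed C57BL/6J mice. Ifi47 was at 21.2 and 20.8 TPM in control and 42.5, 29.6, 42.7 and 42.4 TPM in fed C57BL/6J mice. Neither overlapped its control. Both were called, with log2 differences of 1.03 ± 0.21 (SE, adjusted p = 0.00370) and 1.13 ± 0.16 (SE, adjusted p = 0.000442), 2 of the 5 members tested, where 8.02% of all genes were called higher. Igtp was higher by 0.46 (adjusted p = 0.0339), under the fold limit, and Iigp1 differed by 0.12. Both calls were lost with the replicate number as a block, and 1 was lost without AMLN replicate 1 or replicate 4. In the same C57BL/6J libraries the Kupffer cell markers summed to 9161 to 12048 TPM in fed and 15880 to 16285 TPM in control mice. The largest falls of a mean were from 497 to 88.2 TPM for Timd4 and from 1347 to 19.1 TPM for Cd163. Clec4f, Vsig4 and Marco were also lower, Adgre1 went from 878 to 724 TPM, and Cd5l was higher, at 6061 against 4645 TPM. In fed against control mice, monocyte markers summed to 28.5 to 34.6 against 11.3 to 18.5 TPM and dendritic cell markers to 5.21 to 9.14 against 1.26 to 1.98 TPM. T and NK cell markers summed to 21.3 to 65.8 against 3.16 to 12.1 TPM. Their part in the result was not tested.

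In A/J the fed libraries held 56.4, 15.2, 134 and 62.7 TPM of Iigp1 against 67.6 and 46.9 TPM in controls. In BALB/cJ they held 7.66, 61.4 and 23.2 TPM against 18.4 and 43.2 TPM. The fed libraries lay on both sides of the controls, and the same libraries, A/J replicate 3 and BALB/cJ replicate 2, were the highest of their groups for Irgm1, Irgm2, Igtp, Iigp1, Tgtp2 and Ifi47. None of 6 members was called in A/J, where 0.0504% of all genes were called, and none of 5 in BALB/cJ, against 3.42%. The test of strain by diet called none of 6, against 3.1% of all genes.

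**Figure D5:**
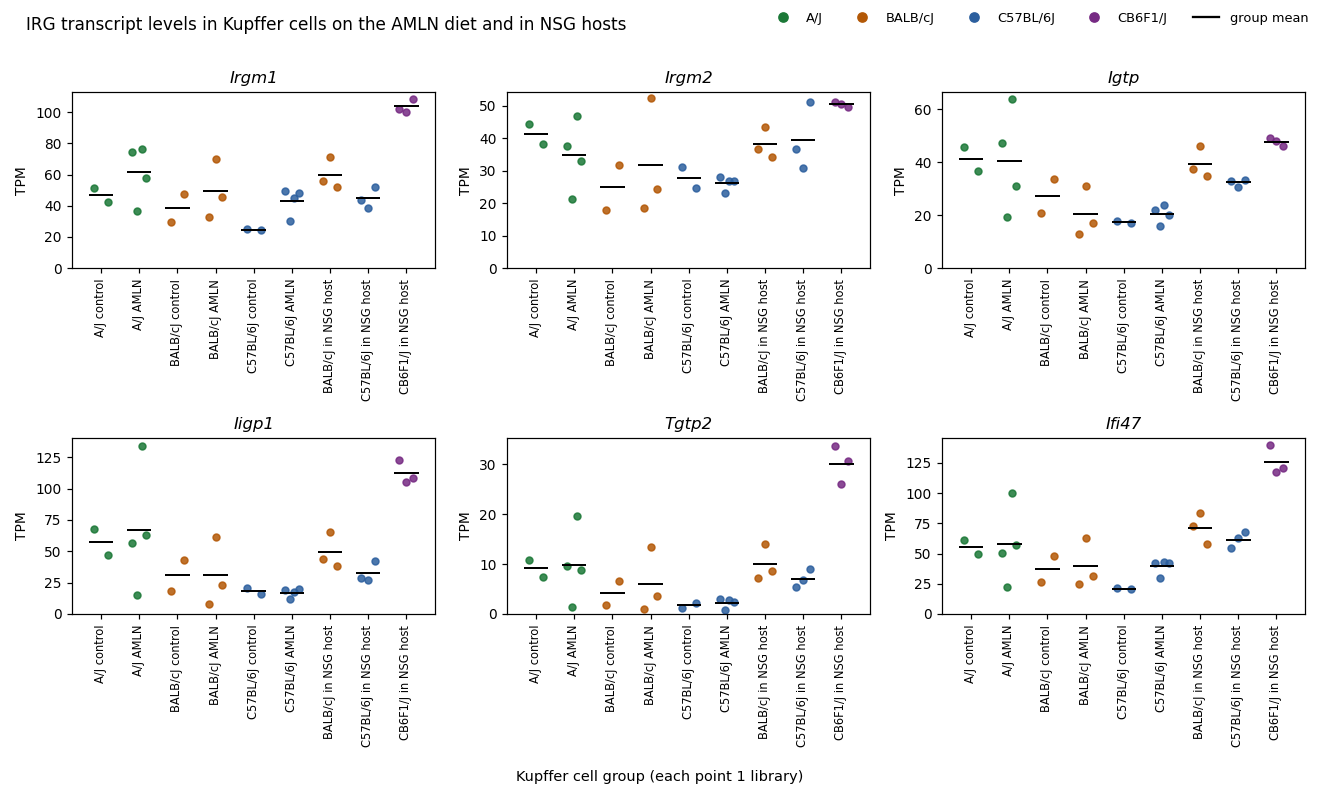
TPM of 6 IRGs in every Kupffer cell library of control mice, mice on the AMLN diet and NSG hosts. Each point is 1 library and each black line the group mean, on linear axes from 0. The 4 A/J libraries on the diet span 15.2 to 134 TPM of Iigp1, and Ifi47 in NSG hosts runs from 54.4 to 140 TPM, above the 20.8 and 21.2 TPM of C57BL/6J controls.

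In NSG hosts, Ifi47 was higher in C57BL/6J donor Kupffer cells than in native ones, and no member was called for BALB/cJ. Ifi47 was at 54.4, 62.8 and 67.5 TPM in C57BL/6J donor cells against 21.2 and 20.8 TPM in C57BL/6J livers, and at 72.7, 83.7 and 57.7 TPM in BALB/cJ donor cells against 26.5 and 48.2 TPM. The C57BL/6J difference was 1.53 ± 0.14 (SE, adjusted p = 1.22e-05) on the log2 scale, the 1 member called of 5 tested, where 5.93% of all genes were called higher. Irgm1, Igtp and Iigp1 rose by 0.83, 0.87 and 0.81 in C57BL/6J, each past the adjusted p and under the fold limit. In BALB/cJ all 6 differences were positive, from 0.53 to 1.27, and none was called, against 4.82% of all genes. Without BALB/cJ control replicate 2, 5 were called.

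In the shared host no member was called between the strains. Iigp1 was at 44.0, 65.0 and 38.1 TPM in BALB/cJ and 28.4, 27.2 and 42.3 TPM in C57BL/6J donor cells. The BALB/cJ minus C57BL/6J differences ran from -0.01 for Irgm2 to 0.62 for Iigp1, and none of 6 was called, against 3.63% of all genes. Irgm1 passed the adjusted p under the fold limit (difference 0.46, adjusted p = 0.0367). The test of strain by host called none of 6 (adjusted p from 0.453 to 0.927), against 1.14% of all genes. Hybrid donor cells held 117 to 140 TPM of Ifi47 and 106 to 122 TPM of Iigp1, in a table normalized apart from the parental ones. T and NK cell markers summed to 98 to 587 TPM in the parental NSG libraries against 0.878 to 12.1 TPM in their native controls. B cell markers summed to 41.6 to 230 against 15.1 to 26.2 TPM, monocyte markers to 29.9 to 80.9 against 3.25 to 18.5 TPM and dendritic cell markers to 11 to 55.1 against 0.615 to 1.98 TPM. Kupffer cell markers summed to 11961 to 13444 TPM in C57BL/6J donor libraries against 15880 to 16285 TPM in native ones. Single markers went both ways there. Cd163 had means of 46.9 against 1347 TPM, and Clec4f, Timd4, Vsig4 and Marco were also lower. Cd5l and Adgre1 were higher in donor libraries, at 5082 against 4645 TPM and 1026 against 878 TPM. In BALB/cJ the Kupffer cell marker sums overlapped. Cd163 had means of 350 against 1171 TPM there, and Clec4f and Marco were also lower in donor libraries. Timd4, Vsig4, Cd5l and Adgre1 were higher in them, with Cd5l at 5662 against 3729 TPM. Ifng, which T and NK cells make, had means of 2.37 and 2.08 TPM in BALB/cJ and C57BL/6J donor libraries against 0 and 0.064 TPM in the native ones. Their part in the IRG levels was not tested.

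Other genes of the pathway were counted by list. Of the GBPs, GTPases that act with IRGs at the vacuole, LPS raised 8 of 10 tested in BALB/cJ, 7 of 9 in C57BL/6J and 9 of 10 in the hybrid, where 16%, 18.3% and 18.7% of all genes were called higher, and lowered Gbp8 in BALB/cJ and the hybrid. The list medians were 3.11, 3.51 and 3.18 on the log2 scale, beside -0.04, -0.04 and -0.03 over all genes tested. Gbp5 led in each strain, at 6.44, 7.07 and 6.32. Of the 19 interferon signalling genes, 17 were tested and 7, 10 and 9 rose, led by Socs3, a feedback inhibitor of cytokine signalling, at 8.85, 8.16 and 8.47. Jak2, the kinase of the interferon-gamma receptor, rose by 3.70, 3.80 and 3.79. Ifngr1, the ligand-binding chain of that receptor, fell by 1.39, 1.72 and 1.87. Of 14 genes for ATG conjugation and vacuole targeting, 3, 3 and 4 rose, near the 16%, 18.3% and 18.7% of all genes called higher, with Sqstm1, Trim21 and Rabgef1 among them in each strain. Ifng, the ligand, had group means of 0 to 0.230 TPM in Kupffer libraries with and without LPS. Ifnb1, a type I interferon, was listed at 0 TPM in the control groups and had means of 2.29, 3.07 and 1.82 TPM after LPS. Gm12250, which encodes the IRG effector IRGB10, rose by 1.78, 4.37 and 2.84, the 1 gene of the other IRG loci that rose in all 3 strains.

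KLA raised 5 of 6 tested GBPs in A/J, BALB/cJ and hybrid BMDMs and 4 of 4 in C57BL/6J, where 7.43%, 8.72%, 8.26% and 9.61% of all genes were called higher in A/J, BALB/cJ, the hybrid and C57BL/6J. In the order A/J, BALB/cJ, hybrid and C57BL/6J, they had list medians of 2.55, 2.78, 2.39 and 2.43 on the log2 scale. The IRG medians in the same comparisons were 0.85, 0.77, 1.08 and 0.87. In NSG hosts, 5 of 8 GBPs rose in BALB/cJ, against 3.19% of all genes, and 1 of 8, Gbp2, in C57BL/6J, against 5.93%. Hepatocytes had 8 of 9 tested GBPs lower than Kupffer cells, against 30% of all genes, with Gbp11 higher by 7.85.

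Across the 25 parental groups, 5 of the 6 members that passed the level filter followed one profile and Iigp1 did not. Pearson's r of log2(TPM + 1) group means with the mean standardised profile was 0.95 for Irgm2, 0.93 for Ifi47, 0.89 for Igtp, 0.88 for Tgtp2 and 0.82 for Irgm1, against 0.30 for Iigp1. These are descriptions over groups that share strains and cell types, and each member is part of the mean. The highest groups were C57BL/6J and BALB/cJ Kupffer cells after LPS and the lowest the hepatocytes of the 3 strains. The 10 other genes nearest to the profile were Herc6, Ifit3b, Gbp7, Tiparp, Arf4, Ifih1, Gbp5, Gbp3, Gbp6 and Stat2, with r from 0.91 to 0.86.

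In position, 6 of the members lie on chromosome 11 of GRCm38 and 1 on another chromosome, as RefSeq gives them. Tgtp1 (48985329 to 48992246), Tgtp2 (49057196 to 49064212), Ifi47 (49076587 to 49096987) and Irgm1 (48865245 to 48871420) form a cluster on chromosome 11. Igtp (58199556 to 58207592) and Irgm2 (58214977 to 58222783) form a further pair there. Iigp1 lies alone among the members on chromosome 18, at 60373616 to 60392634.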

How the data were processed

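Poly(A) RNA libraries were aligned by the authors with STAR to genomes of each strain built from its variants, shifted to mm10 coordinates with MMARGE and counted with HOMER. Tool versions and the strand setting of the counting are not given in the sources used here. Reads of overlapping genes on opposite strands may therefore be shared. The deposited gene counts are estimated counts per gene made by the authors with HOMER, not normalized and in part fractional, and were rounded to whole numbers. The deposited TPM values are HOMER's length-corrected levels. For hybrid libraries, the authors deposited reads that match each parental genome perfectly, and the mean of the perfect reads on both genomes was used and rounded. Their tables of variant-spanning reads gave the allele shares.

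Counts were fitted with edgeR 4.0.16 (TMM scaling, robust quasi-likelihood test) after filterByExpr and a filter of a mean above 8 TPM in at least 1 group. Allele tests, without filterByExpr, took autosomal genes with the same TPM filter. These genes also needed a mean of at least 10 variant reads per library, both alleles summed. Benjamini-Hochberg adjustment was over all genes tested. The LSEC strain comparisons shared a fit of the LSEC libraries of all strains. The LSEC, stellate and hepatocyte minus Kupffer cell differences shared a fit of the control libraries of all these cell types. Their standard errors and p-values therefore also rest on groups outside the named pair. Other comparisons used only their own groups. Over 3 strains or an interaction of them, the pair with the largest difference is given. The fits were tested on simulated data. DESeq2 1.42.0, RLE scaling, no level filter, a replicate block, summed Tgtp1 and Tgtp2, and leaving out each library were the alternatives. Library totals alone, and leaving out libraries high in markers of other cells, were added after seeing the data. Exact permutation tests used scipy 1.17.1. Binomial intervals used R 4.3.3 on rounded read counts and cover counting error only.

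Total counts were 5254797 to 42779190 per parental library, and no 2 libraries were identical. The members and gene lists were chosen with earlier results of these data known. Genes named outside the members belong to these lists and were picked as leading or called genes, or are the 10 genes nearest to the mean profile. Same-numbered libraries did not deviate together in every pair of any comparison, so numbers were not taken as pairs, but the 2 alleles of a hybrid library share that library. Protein sequences were not used here, so coding stretches are shown. Not every gene of these lists is reported here.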

Additional observations from a re-analysis of the deposited data

Results flagged for a closer look

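Of 63 group and member pairs with 4 to 10 libraries, 4 held a library far from the rest of its group by Dixon's criterion, which flags about 1 in 20 groups by chance. Irgm1 was at 49.7 TPM in A/J stellate replicate 3, the library with the most Kupffer cell markers in that group. Irgm2 was at 29 TPM in A/J LSEC replicate 3, against 16.4 to 17.1 TPM in the others. Tgtp1 was at 1.63 TPM in CB6F1/J control Kupffer replicate 2, and its reads cannot be told apart from those of Tgtp2 with certainty. Ifi47 was at 29.6 TPM in C57BL/6J Kupffer replicate 2 on the AMLN diet, against 42.4 to 42.7 TPM in the others.

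The A/J minus C57BL/6J difference was lower in LSECs than in Kupffer cells, with interactions of -1.20 for Irgm1, -2.05 for Iigp1 and -1.40 for Ifi47 on the log2 scale (edgeR, adjusted p = 0.0386, 0.0167 and 0.0132). The number of members called by this test was 0 without A/J Kupffer replicate 1.

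The BALB/cJ minus C57BL/6J allele difference of Irgm2 in hybrid Kupffer cells was higher after LPS by 0.66 on the log2 scale with the library as a block (edgeR, adjusted p = 3.53e-05), and the BALB/cJ share was higher in each of the 5 LPS libraries than in each of the 4 control libraries. Without the block the adjusted p was 0.757.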

How the results depend on the processing

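Counts of members called that moved by over 1.5 times are given here, and the causes were not tested. Without the level filter, 1 member was called in BMDM A/J minus BALB/cJ, 3 in BMDM BALB/cJ minus C57BL/6J, 0 in stellate minus Kupffer cells, 2 for KLA in A/J, 1 for KLA in the hybrid, 1 for NSG in BALB/cJ and 3 for NSG in C57BL/6J. With DESeq2, 1 was called in stellate cells over the strains, 0 in stellate minus Kupffer cells, 1 in strain by cell type for BMDMs, 6 in strain by cell type for LSECs, 1 in strain by LPS and 1 for NSG in BALB/cJ. RLE scaling gave 0 in stellate minus Kupffer cells. With the replicate block, 0 were called in stellate minus Kupffer cells, 2 for KLA in the hybrid, 0 for the AMLN diet in C57BL/6J and 2 for NSG in BALB/cJ, and no other count moved by over 1.5 times. Library totals alone gave 2 in BMDMs minus Kupffer cells, 1 for KLA in BALB/cJ and 0 for KLA in C57BL/6J. Without the 4 A/J stellate libraries, 1 was called in stellate cells and 2 in stellate minus Kupffer cells. Summing Tgtp1 and Tgtp2 gave 2 for NSG in C57BL/6J.

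Leaving out 1 library gave these ranges of members called. In groups of 2 the library left is assumed to vary like the other groups of the fit. In Kupffer cells they were 0 to 3 for A/J minus BALB/cJ, 2 to 5 for A/J minus C57BL/6J and 0 to 2 for BALB/cJ minus C57BL/6J. In BMDMs they were 0 to 1, 0 to 2 and 1 to 3 in the same order. They were 0 to 1 for stellate cells, 0 to 2 for stellate minus Kupffer cells, 0 to 2 for strain by cell type with BMDMs and 0 to 6 with LSECs. They were 3 to 6 for LPS in BALB/cJ, 0 to 3 for strain by LPS, and 1 to 4, 0 to 3, 0 to 2 and 0 to 5 for KLA in A/J, BALB/cJ, C57BL/6J and the hybrid. They were 0 to 1 for strain by KLA, 1 to 2 for the AMLN diet in C57BL/6J, 0 to 5 for NSG in BALB/cJ and 1 to 2 for NSG in C57BL/6J. The libraries behind the extremes that the results do not name are A/J PBS replicate 2 (4 for KLA), BALB/cJ KLA replicate 1 (0), C57BL/6J PBS replicate 1 (0), BALB/cJ KLA replicate 2 (1 for strain by KLA) and C57BL/6J control Kupffer replicate 1 (2 for NSG). Leaving out 1 library was not run for the alleles in BMDMs with PBS or KLA alone, where 1 library would remain. Of the values of single called members, 575 stayed on their side of the threshold, 49 fell below it and 0 changed sign. Groups of 2 libraries limit the precision of most comparisons.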
